A study of Homo sapiens with 6 samples.

Results

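The nuclear genes for the subunits of the respiratory chain and of ATP synthase were examined in HEY cells, a human ovarian cancer line, with and without knockdown of PQBP1, a protein that acts in pre-mRNA splicing. They were taken by name, as every row of the gene table that starts with NDUFA, NDUFB, NDUFC, NDUFS or NDUFV and a digit, with NDUFAB1, UQCR, COX4 to COX8 or ATP5, or that is SDHA, SDHB, SDHC, SDHD or CYC1, without names that carry a hyphen or end in P and digits. This gave 85 genes of the 32679 in the table, and the rule uses names alone. The cells carried a stable lentiviral hairpin under puromycin selection, either a control (shNC, 3 samples) or one against PQBP1 (shPQBP1, 3 samples), and the labels give day 3 for all 6 samples. By the labels the shPQBP1 cells received doxycycline at 1 µg/ml and the shNC cells received none, so that the hairpin and the drug cannot be told apart. Poly(A) RNA was sequenced, and a gene's level is its FPKM, the fragments counted on it scaled by the length of its transcript and by the depth of the sample, as deposited.

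Oxidative phosphorylation runs through 5 complexes of the inner mitochondrial membrane. Complex I oxidises NADH and complex II oxidises succinate, both pass electrons to ubiquinone, complex III hands them on to cytochrome c, and complex IV reduces oxygen with them. Complexes I, III and IV pump protons, and ATP synthase uses the proton gradient to make ATP. Apart from complex II, each complex is built from subunits of the nuclear genome, made in the cytosol and imported, together with a few made inside the organelle from mitochondrial DNA. The question put to these data was how the mRNA of the nuclear subunits stood after PQBP1 knockdown, in a study that also followed mitochondrial mass and respiration by other means.

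Many of these genes share short elements near their start sites, and the promoters of those that differed most are shown here for that reason. RefSeq (GRCh38.p14) gave a window from 250 bases before to 50 bases after the start for 65 of the 85 genes. The windows were searched on both strands for a core of the NRF1 element (GCGCATGC), a core of the ETS element bound by GABP (CCGGAAG) and a core bound by YY1 (AAGATGGC). The NRF1 core and its reverse complement can overlap by all but a pair of bases, so that 1 palindromic site can be found on both strands, and a gene was counted once. The NRF1 letters were in 14 of the 65 windows (21.5%) against 3.68% of the windows of all 27305 genes, the ETS letters in 20 (30.8%) against 12.2%, and the YY1 letters in 12 (18.5%) against 3.52%. At least 1 of the 3 was in 36 windows (55.4%), against 17.6% of all genes. A match describes the letters and is not evidence of binding.

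Among the 14 subunit genes with an unadjusted p under 0.05 (below), 7 had a match, shown with 10 bases on either side in the direction of the gene, and with the match in capitals. The first 4 hold an ETS or NRF1 core and the last 3 a YY1 core.
COX8A: agctccagaaCTTCCGGccagcgcagc
UQCRH: gtgtgccgcaCTTCCGGccagatcgcc
ATP5F1A: aggggcagtaCTTCCGGgtcaggtggg
ATP5F1C: gggagcttcgGCGCATGCgcgctgaggc
NDUFA7: tcgcggacggAAGATGGCgtccgccacc
NDUFB8: gaagaaggtgAAGATGGCggtggccagg
UQCRC1: ctgcagctggAAGATGGCggcgtccgtg
The COX8A stretch lies at chr11:63974592-63974618 on the plus strand, that of UQCRH at chr1:46303642-46303668 (plus), that of ATP5F1A at chr18:46098328-46098354 (minus) and that of ATP5F1C at chr10:7788145-7788172 (plus). The stretch of NDUFA7 lies at chr19:8321344-8321371, that of NDUFB8 at chr10:100529837-100529864 and that of UQCRC1 at chr3:48609606-48609633, all on the minus strand. The ETS and NRF1 matches started 18 to 48 bases before the start site, and the YY1 matches 14 to 23 bases after it. Genes lower and genes higher in the shPQBP1 samples were both among the 7, since NDUFA7 had the higher FPKM in those samples and the other 6 the lower.

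The whole windows of COX8A and NDUFA7 are given as an example of each direction, with the same capitals. The COX8A window (chr11:63974370-63974669, plus strand, GRCh38.p14) has a GC content of 55% and the NDUFA7 window (chr19:8321326-8321625, minus strand) one of 66.7%.
COX8A: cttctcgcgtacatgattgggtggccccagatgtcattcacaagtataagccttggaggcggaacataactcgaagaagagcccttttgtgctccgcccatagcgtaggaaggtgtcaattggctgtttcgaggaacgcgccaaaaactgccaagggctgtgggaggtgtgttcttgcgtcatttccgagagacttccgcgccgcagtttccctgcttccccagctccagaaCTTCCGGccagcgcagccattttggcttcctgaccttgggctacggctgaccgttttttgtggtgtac
NDUFA7: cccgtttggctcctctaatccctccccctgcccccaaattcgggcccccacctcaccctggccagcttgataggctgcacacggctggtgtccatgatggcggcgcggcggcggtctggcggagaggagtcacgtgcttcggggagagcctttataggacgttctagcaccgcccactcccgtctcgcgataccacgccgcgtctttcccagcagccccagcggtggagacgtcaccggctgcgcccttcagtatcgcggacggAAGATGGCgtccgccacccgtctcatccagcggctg
The median log2 difference in FPKM, shPQBP1 minus shNC, was -0.12 over the 14 tested subunit genes with the NRF1 letters. It was -0.11 over the 20 with the ETS letters and -0.15 over the 12 with the YY1 letters. For each element, the genes without its letters, which may hold those of another, had a median of -0.08. These medians are descriptions and were not compared by a test.

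The knockdown showed in every sample. PQBP1 stood at 7.18, 6.67 and 6.93 FPKM in the shNC samples and at 1.68, 1.72 and 1.44 in the shPQBP1 samples, and it fell by 2.04 on the log2 scale (limma, adjusted p = 0.00154). VIM, KRT18, KRT8, KRT7 and PAX8 were expressed, EPCAM was near 1 FPKM, and CDH1 and MUC16 were at or near 0. Of 6 markers of immune and endothelial cells 4 had a row, and all were at 0.25 FPKM or lower, with PTPRC at 0. The first shNC sample stood apart from the rest. It held the highest value of the 6 samples in 57 of the 81 subunit genes tested (70.4%), against 32.0% of all genes tested, and its median deviation over the subunit genes was 0.24 on the log2 scale, against -0.10 to 0.00 in the other 5. Counts and medians of the complexes that moved by over 1.5 times when it was left out are also given without it. The same holds for log2 differences of subunit genes named by rule, but not for genes of the other lists. The summed FPKM of all genes ran from 278285.8 to 318484.3 and was 7.54% lower in the shPQBP1 samples.

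The subunit mRNAs covered a wide range of levels. A test required that the 6 samples average 1 FPKM or more, and 81 of the 85 genes passed. Their mean FPKM ran from 1.458 for NDUFS7 to 290.2 for NDUFS5, with a median of 23.6 against 5.54 over the 11413 genes tested. NDUFS5, a small accessory subunit of the membrane arm, was the highest in complex I and of all subunits. SDHD, a membrane anchor, was the highest in complex II (37.4), UQCRH, the hinge protein between the cytochromes, in complex III (176.3), COX8A, a very small subunit, in complex IV (113.9) and ATP5F1B, the catalytic β subunit, in ATP synthase (239.9). The 4 genes that did not pass were COX7A1 and ATP5MGL, listed at 0 in all 6 samples, COX8C, at 0.09 in 1 shNC sample and 0 in the rest, and NDUFA4L2, between 0.13 and 0.28.

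**Figure D1:**
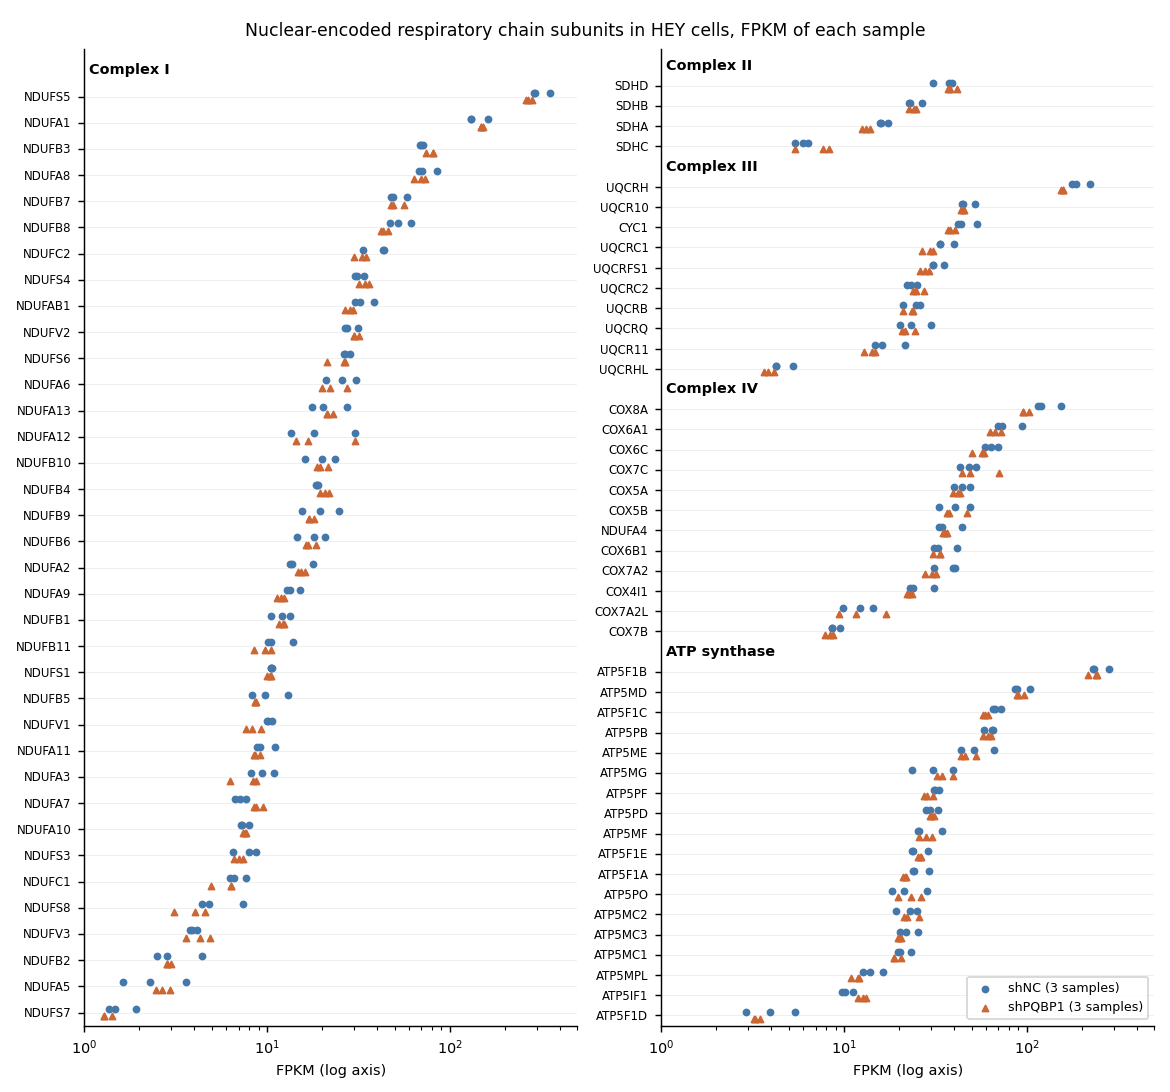
FPKM on a log axis of 80 of the 81 tested subunit genes, grouped by complex and ordered by mean level, with blue circles for the 3 shNC samples and orange triangles for the 3 shPQBP1 samples. Levels run from NDUFS7 at 1.458 to NDUFS5 at 290.2, and for most genes the 2 groups overlap.

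No nuclear subunit gene changed at an adjusted p under 0.05 in limma, where the lowest adjusted p was 0.0944 (SDHA), while 332 of all 11413 genes did (2.91%). In simulated data the same fit and threshold found 11 of 100 genes changed by 0.5 on the log2 scale, so changes of that size can be missed. The changed genes were drawn from all genes tested, so the rate is not that of the subunit genes. In bulk RNA, fewer cells of a kind and less RNA per cell cannot be told apart. At an unadjusted p under 0.05, 4 subunit genes were higher in the shPQBP1 samples (4.94% of those tested, against 11.9% of all genes) and 10 were lower (12.3%, against 11.7% of all genes). The share of lower genes was thus close to that of all genes, and the share of higher genes was below it. None combined a more than 2-fold difference with an unadjusted p under 0.05, the rule of the study, which 1.52% of all genes met. The 95% confidence interval of the difference lay within a 2-fold change in either direction for 80 of the 81 genes, the exception being NDUFS8, and the median standard error was 0.11 on the log2 scale.

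The differences leaned to the lower side. Of the 81 genes, 56 (69.1%) had the lower mean in the shPQBP1 samples on the log2 scale, against 47.2% of all genes, and the median difference was -0.10 against 0.02 for all genes. The 2 groups of samples did not overlap in 5 genes that were higher (6.17%, against 17.3% of all genes) and in 18 that were lower (22.2%, against 17.1%). The lean was smaller without the first shNC sample. The median was then -0.03 against 0.01 for all genes, 44 of the 81 differences were negative, and the unadjusted rule gave 10 higher and 9 lower genes. Of all 11436 genes tested in that fit, 1553 were higher and 1281 lower by this rule. The lower genes numbered 2, 5 and 3 without the first, the second and the third shPQBP1 sample, and the higher genes 2 without the second shNC, the third shNC or the second shPQBP1 sample. In the same order, 868, 1112 and 933 of all genes were lower and 1639, 1193 and 996 higher, with 11361 to 11395 tested per fit. At an adjusted p under 0.05, 1 subunit gene passed without the first shNC sample (1.23%, against 4.07% of all genes).

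**Figure D2:**
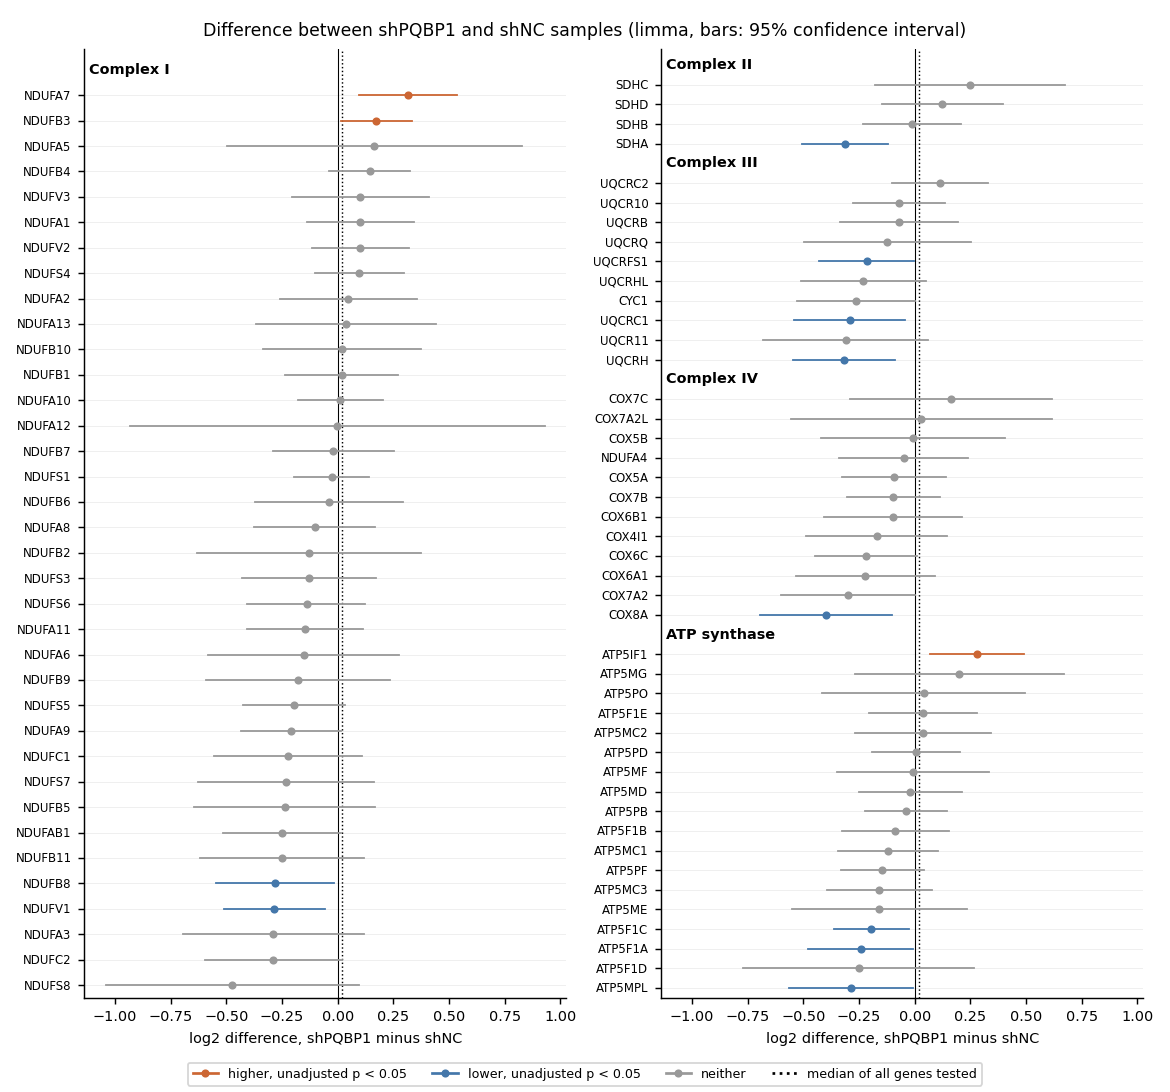
Log2 difference in FPKM between the shPQBP1 and shNC samples for 80 of the 81 tested subunit genes by complex, with points for the limma estimate, bars for its 95% confidence interval and a dotted line at the median of all genes tested (0.02). The points run from -0.47 for NDUFS8 to 0.32 for NDUFA7, and 13 of the plotted intervals exclude 0.

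In complex I, of 37 genes 3 had higher and 2 had lower FPKM at an unadjusted p under 0.05, and the median log2 difference was -0.10. Among all genes these shares were 11.9% and 11.7%. Without the first shNC sample complex I had 7 higher and 2 lower genes and a median of -0.03, and without the first or the third shPQBP1 sample it had no lower gene by that rule.

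NDUFA7, an accessory subunit of the NADH-oxidising arm, stood at 7.70, 7.09 and 6.65 FPKM in the shNC samples and 8.76, 8.52 and 9.47 in the shPQBP1 samples. The groups did not overlap, and the log2 difference was 0.32 ± 0.09 (SE, n = 3 per group, limma, adjusted p = 0.119). The exact permutation test gave p = 0.1, the smallest it can give with 3 samples against 3. Its exons overlap those of RPS28, a ribosomal protein gene on the other strand at a mean of 49.2 FPKM, and whether the counting used strand is not given, so that part of its reads may belong to RPS28. NDUFB3, an accessory subunit at the far end of the membrane arm, stood at 69.03, 71.40 and 69.27 FPKM against 80.54, 81.52 and 74.61, again with no overlap (log2 difference 0.17 ± 0.07, SE, limma, adjusted p = 0.188).

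NDUFV1, the core subunit that binds NADH, was on the lower side, with 10.61, 10.10 and 9.95 FPKM in the shNC samples and 8.26, 9.25 and 7.68 in the shPQBP1 samples. NDUFB8, an accessory subunit of the membrane arm, stood at 61.17, 47.35 and 51.94 FPKM against 42.14, 46.11 and 42.91. In both genes every shPQBP1 sample lay below every shNC sample, although the highest shPQBP1 value of NDUFB8 came close to the lowest shNC value. The log2 differences were -0.28 ± 0.09 for NDUFV1 (SE, limma, adjusted p = 0.148) and -0.28 ± 0.11 for NDUFB8 (adjusted p = 0.19). NDUFB8 was -0.18 without the first shNC sample, and with GC content and length corrected for, as described further on, NDUFV1 was -0.08, NDUFB8 -0.15 and NDUFB3 0.05.

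The core subunits of complex I hold its flavin, its iron-sulphur clusters and its quinone site. NDUFV2 and NDUFS1, of the NADH-oxidising arm, had log2 differences of 0.10 and -0.03. NDUFS3, NDUFS7 and NDUFS8, of the quinone-binding arm, had -0.13, -0.23 and -0.47, none with an unadjusted p under 0.05. Without the first shNC sample NDUFV2, NDUFS3 and NDUFS7 had 0.18, -0.04 and -0.09. NDUFS8, with the lowest estimate of all subunits, stood at 7.39, 4.40 and 4.81 FPKM in the shNC samples and 4.03, 4.57 and 3.11 with the PQBP1 hairpin. The groups overlapped, the first shNC sample was far above the other two, and the log2 difference was -0.25 without it.

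By position in the enzyme, the median log2 difference was 0.02 over the 10 genes of the NADH-oxidising arm. It was -0.13 over the 5 of the quinone-binding arm. Over the 10 of the proximal and the 12 of the distal membrane arm it was -0.17 and -0.08. These medians were not taken without the first shNC sample, and that of all complex I moved from -0.10 to -0.03 without it. NDUFS5, of the proximal part, stood at 352.14, 287.54 and 291.68 FPKM in the shNC samples and 261.39, 281.65 and 266.54 in the shPQBP1 samples. The groups did not overlap, with a log2 difference of -0.20 ± 0.09 (SE, limma, adjusted p = 0.259), which was -0.10 without the first shNC sample. NDUFA12, named here for its spread after its values were seen, ran from 13.48 to 30.37 FPKM in the shNC samples and from 14.40 to 30.41 in the shPQBP1 samples, and its difference of 0.00 had the largest standard error of the 81 (0.38).

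Complex II is the only one of the 5 complexes built wholly from nuclear genes, and it is also an enzyme of the TCA cycle. SDHA (chr5:218303-257082, plus strand), its flavoprotein, stood at 17.49, 16.03 and 15.86 FPKM in the shNC samples and 13.14, 13.86 and 12.64 in the shPQBP1 samples. The groups were clearly separate, with a gap between the lowest shNC and the highest shPQBP1 value wider than the range of either group. The log2 difference was -0.31 ± 0.08 (SE, limma, adjusted p = 0.0944), the lowest adjusted p among the subunits. The related SDHAP1 and SDHAP2, which can share reads with SDHA, also had lower means in the shPQBP1 samples, from 6.02 to 5.20 FPKM and from 5.46 to 3.98.

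The other subunits of complex II did not go with SDHA. SDHB, the iron-sulphur subunit, stood at 26.63, 22.85 and 22.92 FPKM against 22.65, 24.88 and 24.11 (log2 difference -0.01). SDHC, a membrane anchor, stood at 5.94, 6.39 and 5.39 against 5.39, 7.69 and 8.33 (0.25), and SDHD at 39.00, 30.71 and 37.75 against 41.49, 38.03 and 37.12 (0.12). The groups overlapped in all 3, and none had an unadjusted p under 0.05. SDHB had 0.06 and SDHD 0.19 without the first shNC sample.

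Complex III leaned to the lower side most evenly. Of its 10 genes 9 had a negative log2 difference, 6 did not overlap between the groups, and 3 had an unadjusted p under 0.05, with a median of -0.22. Among all genes 47.2% had a negative difference, 17.1% lay lower without overlap and 11.7% were lower by the unadjusted rule. UQCRH (chr1:46303698-46316776, plus strand) stood at 222.78, 178.04 and 187.22 FPKM in the shNC samples and 153.95, 158.46 and 157.14 in the shPQBP1 samples. The shPQBP1 samples lay close together and below all shNC samples, with a log2 difference of -0.32 ± 0.10 (SE, limma, adjusted p = 0.127). UQCRHL, an intronless near copy of UQCRH that can take up its reads, had -0.23 at a mean of 4.24 FPKM, so the pair cannot be fully separated. UQCRHL had -0.13 without the first shNC sample.

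UQCRC1, a core protein of complex III, stood at 39.82, 33.66 and 33.54 FPKM against 26.62, 30.92 and 29.76 in the shPQBP1 samples. UQCRFS1, the Rieske iron-sulphur protein, stood at 35.15, 30.75 and 30.84 FPKM against 26.12, 27.94 and 29.11. Neither overlapped between the groups, and the log2 differences were -0.29 ± 0.10 and -0.22 ± 0.09 (SE, limma, adjusted p = 0.166 and 0.207). CYC1, cytochrome c1, stood at 53.84, 42.36 and 43.90 FPKM against 37.22, 40.74 and 38.25, with no overlap and a log2 difference of -0.26 (adjusted p = 0.214). UQCRC2, the partner of UQCRC1, was the exception, at 22.07, 25.19 and 23.35 FPKM against 24.02, 24.94 and 27.48, with overlap and a log2 difference of 0.11. Without the first shNC sample 7 of the 10 differences were negative, the median was -0.15, and 2 genes were lower at an unadjusted p under 0.05. CYC1 then had -0.15 and UQCRC2 0.07. Without the first or the third shPQBP1 sample 1 gene was lower by that rule. Once corrected for GC content and length, as described further on, CYC1 had -0.05 and UQCRC1 -0.11.

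Among the 12 tested genes of complex IV, 10 had a negative log2 difference, with a median of -0.10, and only COX8A had an unadjusted p under 0.05. Among all genes 47.2% had a negative difference and 11.7% were lower by that rule. Without the first shNC sample 7 of the 12 differences were negative and the median was -0.03, and without the first shPQBP1 sample no gene was lower by that rule. COX8A (chr11:63974620-63976543, plus strand) stood at 154.65, 115.31 and 119.86 FPKM in the shNC samples and 95.15, 102.49 and 95.73 in the shPQBP1 samples. All shPQBP1 values were below all shNC values, and the first shNC sample was far above the other two. The log2 difference was -0.40 ± 0.12 (SE, limma, adjusted p = 0.133), and -0.27 without that sample. COX4I1 and COX5A, nuclear subunits that join the catalytic core early, had -0.17 and -0.09, and COX5B, which binds zinc, had -0.01, all with overlapping groups. The 3 had -0.03, -0.02 and 0.13 without the first shNC sample.

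Several subunits of complex IV have paralogues used in different tissues, and HEY cells expressed the common forms. Among the 85 genes there was no other form of COX6A1, COX6B1 or COX7B, so these could not be set against a paralogue. COX6A1 had a mean of 73.3 FPKM, COX7A2 of 33.5, COX6B1 of 33.9, COX7B of 8.63 and COX8A of 113.9, while the muscle form COX7A1 was listed at 0 and the testis form COX8C at or near 0. NDUFA4, now placed in complex IV, had a mean of 36.6 FPKM against 0.21 for NDUFA4L2, its hypoxia-inducible paralogue. COX7A2L, which joins complexes III and IV, was at 14.52, 9.92 and 12.24 FPKM against 16.96, 11.70 and 9.45, with wide overlap. COX7A2 had 39.52, 40.63 and 31.08 FPKM against 27.65, 31.77 and 30.37 (log2 difference -0.30, limma, unadjusted p = 0.0508).

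In ATP synthase, the unadjusted rule gave 1 higher and 3 lower genes among 18, and the median log2 difference was -0.06. Among all genes 11.9% were higher and 11.7% lower by that rule. Without the first shNC sample 3 were higher and 3 lower and the median was 0.00, and no gene was lower without the third shNC sample or any 1 of the shPQBP1 samples. ATP5IF1, the inhibitor that stops the enzyme from hydrolysing ATP, was the higher one, at 11.19, 9.75 and 10.14 FPKM in the shNC samples and 12.65, 13.14 and 11.95 in the shPQBP1 samples. The groups did not overlap, with a log2 difference of 0.28 ± 0.09 (SE, limma, adjusted p = 0.135). The 3 lower genes were ATP5F1A and ATP5F1C, the α and γ subunits of the catalytic head, and ATP5MPL, a small membrane subunit.

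ATP5F1C stood at 72.29, 65.34 and 67.41 FPKM in the shNC samples and 58.00, 59.53 and 61.40 in the shPQBP1 samples (log2 difference -0.20 ± 0.07, SE, limma, adjusted p = 0.167). ATP5F1A stood at 29.08, 23.79 and 24.09 against 21.14, 21.61 and 21.96 (-0.24 ± 0.10, SE, limma, adjusted p = 0.206). ATP5MPL stood at 16.37, 12.67 and 13.85 against 12.11, 10.92 and 11.95 (-0.29 ± 0.11, SE, limma, adjusted p = 0.204). None of the 3 overlapped between the groups. ATP5F1A had -0.15 and ATP5MPL -0.18 without the first shNC sample.

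ATP5F1B, which carries the catalytic sites next to ATP5F1A, did overlap, at 280.75, 229.33 and 232.39 FPKM against 216.73, 238.92 and 241.30 (log2 difference -0.09, and 0.01 without the first shNC sample). ATP5MC1, ATP5MC2 and ATP5MC3, which encode the same mature c subunit of the rotor ring with different import sequences, had means of 20.3, 22.8 and 21.3 FPKM and log2 differences of -0.12, 0.04 and -0.16, none with an unadjusted p under 0.05. These were -0.05, 0.12 and -0.07 without the first shNC sample. Their levels in the 6 samples ran from 18.72 to 25.65 FPKM over all 3 genes, so that none of them was the dominant source.

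**Figure D3:**
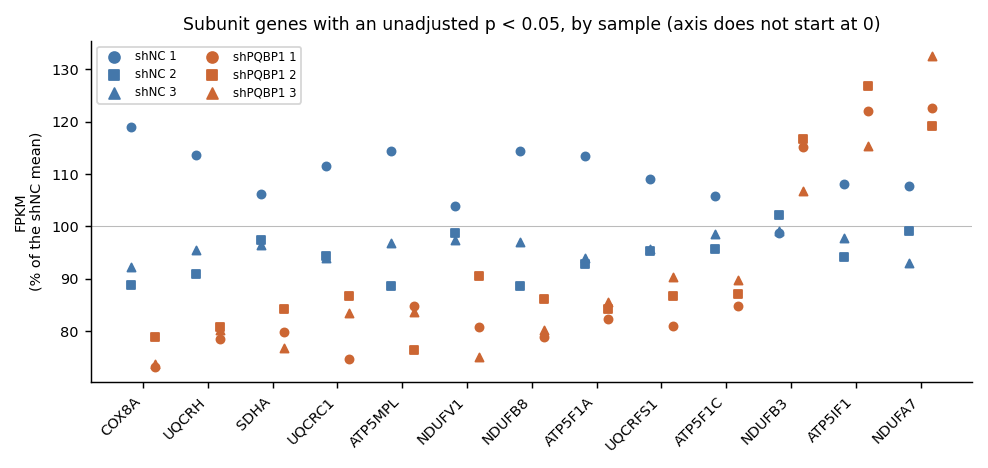
FPKM of 13 of the 14 subunit genes with an unadjusted p under 0.05, as a percentage of the shNC mean of each gene, with a symbol for each sample (blue shNC, orange shPQBP1). The 2 groups do not overlap in any of the 13, and the first shNC sample (blue circle) is the highest of the 6 in each of the 10 lower genes.

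Over all complexes, the 21 core subunits (those of complexes I and II, CYC1, UQCRC1, UQCRC2 and UQCRFS1 of complex III, COX4I1, COX5A and COX5B, and the α, β and γ subunits of ATP synthase) held 1 higher and 6 lower genes by the unadjusted rule (11.9% and 11.7% of all genes) and had a median log2 difference of -0.13. The other 60 tested subunits had 3 higher and 4 lower, with a median of -0.10. The difference between these lists was not tested. Their medians were not taken without the first shNC sample, and that of all 81 genes moved from -0.10 to -0.03 without it. Of the core subunits, UQCRFS1 then left the lower genes and NDUFV2 joined the higher ones (limma, unadjusted p = 0.0671 and 0.0262).

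The amount of subunit mRNA as a whole was also added up per sample. The 85 genes summed to 3454.7, 2890.7 and 2913.9 FPKM in shNC against 2778.8, 2966.8 and 2822.0 in shPQBP1, a mean difference of -7.47%. The groups overlapped, and the difference was -1.6% without the first shNC sample. Relative to the summed FPKM of all genes, the subunits made up 0.958% to 1.08% in the shNC samples and 0.983% to 1.03% in the shPQBP1 samples.

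The sums differed among the complexes. Complex III summed to 503.4, 420.4 and 431.5 FPKM against 374.8, 391.7 and 389.0, with no overlap, a difference of -14.7% and of -9.58% without the first shNC sample. Complex IV summed to 650.4, 523.2 and 518.3 FPKM against 487.1, 530.7 and 481.6, with overlap, a difference of -11.4% and of -4.02% without that sample. The differences were -5.14% for complex I, 0.96% for complex II and -4.94% for ATP synthase, and 0.607%, 5.27% and 0.572% without it. Complex III was thus the only one of the 5 whose summed FPKM did not overlap between the groups. The sum of all genes did not overlap either, with a lowest shNC value of 294970.3 and a highest shPQBP1 value of 287422.6. Its difference was -7.54%, and -5.6% without the first shNC sample. UQCRH weighed heavily in complex III, with means of 196.0 (shNC) and 156.5 (shPQBP1) FPKM in sums averaging 451.7 and 385.1.

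**Figure D4:**
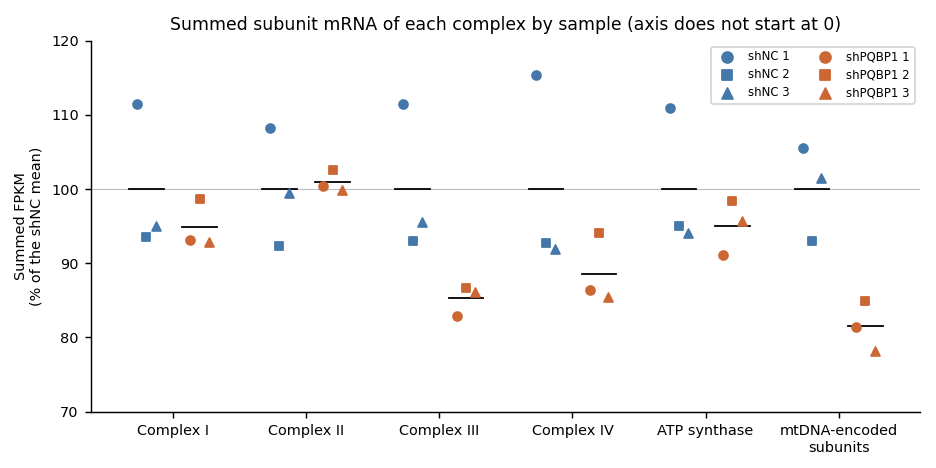
Summed FPKM of the nuclear genes of each complex and of the 13 subunits encoded by mitochondrial DNA, as a percentage of the shNC mean, with a symbol for each sample and a black line at the mean of each group. The groups are apart for complex III (-14.7%) and the mitochondrially encoded subunits (-18.5%) and overlap for the other 4 complexes, where the first shNC sample is the highest of the 6.

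The partner subunits made from mitochondrial DNA were lower in the same samples. Of the 13 genes, all expressed at 2076 FPKM or more, 10 were lower (11.7% of all genes) and none higher (11.9%) by the unadjusted rule, their median log2 difference was -0.29, and MT-ND1, MT-ND2 and MT-ND3, membrane subunits of complex I, fell by 0.39, 0.54 and 0.48 on the log2 scale (limma, adjusted p = 0.0282, 0.0154 and 0.0485). With single samples left out, the adjusted p of MT-ND1 reached 0.147 (without the first shPQBP1 sample), that of MT-ND2 0.0887 (without the same sample) and that of MT-ND3 0.167 (without the third shPQBP1 sample). The sum of the 13 went from 91272.3, 80408.1 and 87696.5 FPKM to 70344.8, 73466.3 and 67625.2, a difference of -18.5% and of -16.1% without the first shNC sample, and the 13 made up 27.3% to 28.8% of the summed FPKM in the shNC samples and 24.3% to 25.6% in the shPQBP1 samples. Under quantile normalization 4 of the 13 had an unadjusted p under 0.05, and the log2 difference of MT-ND1 was -0.02 and that of MT-ND3 -0.04.

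The other genes of the pathway were described in the same fit. Of 48 tested assembly factors 5 were higher and 6 lower by the unadjusted rule (11.9% and 11.7% of all genes), and their median log2 difference was 0.02. TACO1, which activates translation of the mitochondrial COX1 mRNA, was the only one at an adjusted p under 0.05. It stood at 25.20, 20.68 and 20.70 FPKM in the shNC samples and 13.27, 14.57 and 12.65 in the shPQBP1 samples, with no overlap, and it fell by 0.71 on the log2 scale (limma, adjusted p = 0.0313). The adjusted p of TACO1 was 0.0739 to 0.14 when 1 of the samples other than the first shNC sample was left out.

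Of 11 tested regulators of the subunit genes and of mitochondrial transcription, 3 were higher and 2 lower by the unadjusted rule (11.9% and 11.7% of all genes), and none changed at an adjusted p under 0.05. The 5 became 2 without the first shNC, the third shNC or the first shPQBP1 sample, and 0 without the third shPQBP1 sample. The smallest p belonged to the homologues TFB1M and TFB2M, with log2 differences of 0.30 and 0.27 (limma, adjusted p = 0.142 and 0.158). TFB1M methylates mitochondrial ribosomal RNA, and TFB2M helps to start mitochondrial transcription. The factors behind the searched promoter letters were named after their values were seen. NRF1 stood at 4.48, 3.52 and 3.48 FPKM against 2.80, 3.19 and 3.55, and YY1 at 13.34, 14.21 and 13.46 against 13.52, 14.16 and 14.29. GABPA stood at 2.86, 5.39 and 4.57 FPKM against 7.58, 5.51 and 6.56. GABPB1 and GABPB2, on the same list, overlapped between the groups, with log2 differences of 0.08 and 0.09. GABPA alone did not overlap, with a log2 difference of 0.64 (limma, adjusted p = 0.193). The first shNC sample held the lowest GABPA value (2.86 FPKM) and widens that difference, whose value without it is not given. Its exons overlap those of ATP5PF on the other strand, at a mean of 30.5 FPKM, so that part of its reads may belong to ATP5PF.

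Of 17 genes for electron carriers and the TCA cycle, 1 was higher and 3 were lower by the unadjusted rule (11.9% and 11.7% of all genes), and 2 in all without the first shPQBP1 sample. PDHA1, the catalytic α subunit of pyruvate dehydrogenase, which feeds the cycle, stood at 18.19, 17.19 and 18.03 FPKM in the shNC samples and 11.59, 12.72 and 12.65 in the shPQBP1 samples. The groups were far apart, and PDHA1 fell by 0.53 on the log2 scale (limma, adjusted p = 0.0261), with an adjusted p of 0.0733 to 0.119 when 1 of the samples other than the first shNC sample was left out. Of 12 tested genes often used as markers of mitochondrial mass, 1 was higher and 1 lower by the unadjusted rule (11.9% and 11.7% of all genes), 1 in all without the first or second shPQBP1 sample and 0 without the third, and none changed at an adjusted p under 0.05. These were TOMM20, an import receptor, with a log2 difference of 0.24 (limma, adjusted p = 0.176), and PHB, a scaffold of the inner membrane, with -0.46 (limma, adjusted p = 0.159). The first shNC sample held the lowest TOMM20 value (54.17 FPKM) and the highest PHB value (69.72 FPKM), so that it widens both differences. The 5 lists had no test of their own.

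GC content of the transcripts moved with the differences, and length did so only across all genes. Across all 11385 genes with a transcript in GENCODE release 44, Spearman's rho between the log2 difference and GC content was -0.459. It was -0.35 across the 81 subunit genes. For length, rho was 0.206 across all these genes and -0.00534 across the 81. Each rho was taken across genes that share the same 6 libraries and are no replicates. Below 45% GC the median log2 difference was -0.03 in 27 subunit genes against 0.19 in all genes, and at 55% or more it was -0.24 in 16 subunit genes against -0.14. In the classes between them the medians were -0.11 against 0.01 and -0.12 against -0.08, so that the subunit median was below that of all genes in each of the 4 classes. The subunit transcripts were short, with a median of 758 bases against 2981, and 48 of 81 (59.3%) were under 1000 bases, against 13.2% of all genes. Under 1000 bases the median log2 difference was -0.12 in the subunit genes and -0.06 in all genes.

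**Figure D5:**
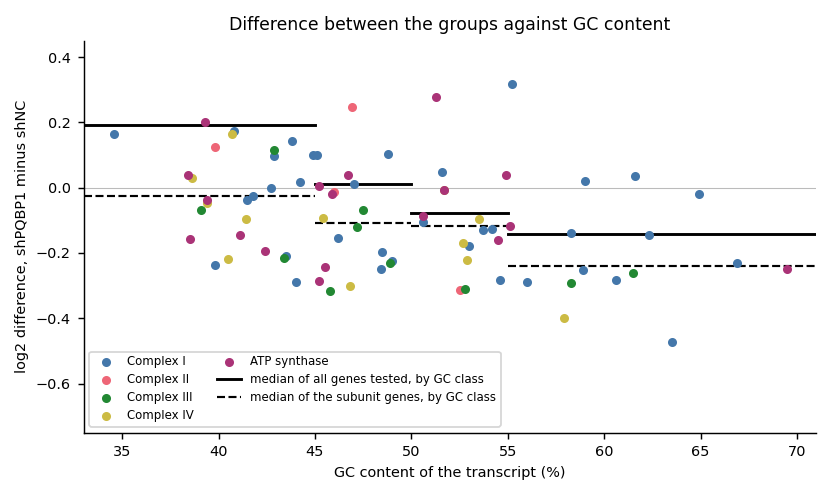
Log2 difference between the shPQBP1 and shNC samples against the GC content of the transcript for 80 of the 81 tested subunit genes, coloured by complex, with solid lines for the median of all genes tested and dashed lines for the median of all 81 subunit genes in each of 4 GC classes. Both sets of lines step down from the class below 45% (0.19 and -0.03) to the class at 55% or more (-0.14 and -0.24).

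When the trend on GC content and length was taken out of each sample, 5 subunit genes passed an adjusted p under 0.05 (6.17%, against 8.24% of all genes). Among them, ATP5IF1 and NDUFA7 rose, by 0.37 and 0.46 on the log2 scale (limma, adjusted p = 0.0241 and 0.0398). COX8A and UQCRH fell by 0.20 and 0.28 (limma, adjusted p = 0.0331 and 0.0302). The correction moved the median of the 81 genes to -0.06 against 0.03 for all genes, and that of complex III to -0.11. After it, the unadjusted rule gave 6 higher and 16 lower subunit genes, against 1784 higher and 1361 lower of all 11385 genes. How far GC content, length and the first shNC sample account for the uncorrected differences was not tested.

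Overlapping genes and near copies limit single values. Of the 85 genes 45 share exon bases with another gene of GENCODE release 44, and 21 share them with a gene at a mean of 1 FPKM or more. Among the 14 genes with an unadjusted p under 0.05, these include NDUFA7 (above), NDUFB8, which overlaps HIF1AN at 6.03 FPKM on the other strand, and NDUFB3, which overlaps HYCC2 at 1.27 FPKM. On the same strand SDHA overlaps ENSG00000286001 at 1.18 FPKM, and NDUFB8 overlaps ENSG00000255339 at 1.52 FPKM. The 57 names left out for a hyphen or a pseudogene ending had low values, with 8 at a mean of 1 FPKM or more and the highest, NDUFV2P1, at 4.08.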

How the data were processed

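RNA-seq of HEY cells with shNC (3 samples) or shPQBP1 (3 samples) was used. The authors mapped reads to hg38 and made a gene table. Per the submitters' processing notes, HISAT2 (2.2.0), SAMtools (1.9), StringTie (1.3.0) and edgeR were used. The annotation release is not given in the sources used here. The deposited values are FPKM per gene and sample, to 2 decimals. The authors' own fold changes and p-values in the same table were not used. Sequencing depth is unknown, since no steps of whole reads were found in low values (strength 0.163 to 0.203), so no counting interval is given, and the spread between samples stands for all error. The series calls the samples biological triplicates, but whether they are separate cultures is not stated beyond that.

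FPKM were tested as log2(FPKM + 0.1), a scale that understates the change of low genes, for the 11413 genes averaging 1 FPKM or more, with two-sided limma (3.58.1, R 4.3.3, lmFit and eBayes with trend) and Benjamini-Hochberg adjustment across every gene tested. An unadjusted p under 0.05 is a looser rule, shown beside its share among all genes in the uncorrected fit of all 6 samples. For some other fits the counts over all genes of the same fit are given instead. Single genes were also compared by a two-sided exact permutation test, whose smallest p is 0.1. Members and gene lists were chosen with earlier results of these data known. Genes named are PQBP1, members at an adjusted p under 0.05, the 5 highest and 5 lowest differences among members at an unadjusted p under 0.05, the highest member of each complex, core subunits, paralogue pairs, and in the other lists genes at an adjusted p under 0.05 or otherwise the pair with the smallest p. The counts, medians and sums include 1 member that is not reported here by itself. Any further genes were named after their values were seen. GC content and length came from GENCODE release 44 (natural splines, 5 degrees of freedom each). Alternatives were other pseudocounts, filters and scalings, array weights, no trend, the replicate block, the GC and length correction, and each sample left out. The GC correction with the block or without the first shNC sample was added after seeing the data. The scripts were tested on simulated data with the means and spread of these samples. At an adjusted p under 0.05, limma recovered 11 of 100 genes changed by 0.5 on the log2 scale. It recovered 45 of 100 genes changed by 1. Tables and figures used Python (3.11.15).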

Additional observations from a re-analysis of the deposited data

How the results depend on the processing

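The median log2 difference of the subunit genes stayed negative under all 18 alternatives (-0.16 to -0.02), as did those of complexes I, III and IV, while that of complex II ran from -0.02 to 0.12 and that of ATP synthase from -0.11 to 0.00. At an adjusted p under 0.05, limma with array weights gave 15 subunit genes (23.3% of all genes passed there), the GC and length correction 5, and that correction without shNC replicate 1, added after seeing the data, 4. Leaving out 1 sample gave 0 to 1. The count of higher genes at an unadjusted p under 0.05 was 8 with array weights and 9 with the GC correction without shNC replicate 1, and 2 to 10 with 1 sample left out. Over all genes these counts were 2434 of 11413, 1682 of 11408 and 854 to 1639. The count of lower genes was 5 without the trend, 18 with array weights and 16 with the GC correction, and 2 to 13 with 1 sample left out. Over all genes the lower counts were 1312 of 11413, 2193 of 11413, 1361 of 11385 and 868 to 1301. Array weights gave shNC replicate 1 a weight of 0.162 and shNC replicate 3 one of 5.81, so they rest largely on single samples.

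With the replicate number as a block, 1 subunit gene was higher and 3 were lower, and no gene of the whole table passed an adjusted p under 0.05 (in limma, 968 genes higher and 872 lower by the unadjusted rule). The correlations of the deviations of same-numbered samples were -0.186, -0.138 and -0.0114. The labels do not say whether same-numbered samples were handled together, and these values cannot settle it. With both the GC correction and the block, no subunit gene passed an adjusted p under 0.05. By the unadjusted rule in limma 5 were higher and 8 lower, against 1410 and 1007 of all 11385 genes. PQBP1 had an adjusted p of 0.0686 with the block. The block left 1 regulator and 0 mass markers at an unadjusted p under 0.05, and with the GC correction 2 and 5.

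In the other lists, mitochondrially encoded genes at an unadjusted p under 0.05 numbered 4 with no filter on low values and 4 under quantile normalization. Assembly factors numbered 4 at a mean FPKM of at least 10 and 21 with array weights (7 to 11 with 1 sample left out). Regulators numbered 1 at a mean of at least 10 and 3 with the GC correction without shNC replicate 1 (0 to 4). Carriers and TCA genes numbered 8 with array weights (2 to 5). Mass markers numbered 1 without the trend, 4 with array weights, 5 with the GC correction and 5 with it without shNC replicate 1 (0 to 3).

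Of 801 values for 45 named genes, 698 kept their side of the threshold and direction, 46 lost and 21 gained a call, and 36 changed sign. With 1 sample left out, the adjusted p of MT-ND1 was 0.0624 to 0.147 without each sample but shNC replicate 1, that of MT-ND2 0.0623 to 0.0887 without shNC replicate 3 or any shPQBP1 sample, and that of MT-ND3 0.0537 to 0.167 without any of the 6. Those that changed sign were not significant in the uncorrected fit, and their cause was not tested. ATP5F1B was 0.0619 under quantile normalization and 0.00989 under the GC correction without shNC replicate 1. Under the GC correction, with or without the block, ATP5MC1 was 0.0208, COX5B 0.0779, COX6B1 0.0286, COX7A2L -0.163, SDHB 0.0117 and SDHD -0.0459. Without shNC replicate 1 as well, COX5B was 0.118, COX6B1 0.0515, NDUFA4 0.00705 and SDHB 0.0315. With array weights COX5A was 0.0349, COX6B1 0.00299, NDUFA4 0.0923 and SDHB 0.0523. Under quantile normalization COX5B was 0.0019 and COX7A2L -0.00679. With 1 sample left out, ATP5F1B ran from -0.138 to 0.00743, ATP5MC2 from -0.0665 to 0.119, COX5B from -0.151 to 0.132, COX6B1 from -0.179 to 0.0343, COX7A2L from -0.199 to 0.22, NDUFA4 from -0.126 to 0.0785 and SDHB from -0.0499 to 0.0601. With 3 samples a group, a log2 difference near the median standard error of 0.112 was within the spread between samples.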
